A study of Mus musculus with 6 samples.

Results

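The genes described here make or sense the prostaglandins and leukotrienes, and their transcripts were followed through 4 cell classes of orthotopic pancreatic tumours. The 9 genes, of 32285 in the count files, were Ptgs1, Ptgs2, Ptges and Hpgds on the prostaglandin side, Alox5 and Alox5ap on the leukotriene side, and the receptors Ptger2, Ptger4 and Ltb4r1, and each symbol matched a single gene identifier. The tumours grew for 4 weeks in the pancreas of C57BL/6 mice aged 6 to 8 weeks after injection of KPC cells. These pancreatic cancer cells, isolated from KPC mice, carried an empty vector (OE-Vector) or an MLKL overexpression construct (OE-MLKL). Of the cells in a tumour only the injected ones carry a construct, and droplet-based 3′ single-cell RNA sequencing was run on digested whole tumours. The labels name 3 samples in each group. The matrices of OE-Vector 1 and of OE-MLKL 1, 2 and 3 were used, while those of OE-Vector 2 and 3 were not analysed here, so a difference between the groups cannot be told apart from a difference between the single OE-Vector tumour and other tumours.

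Arachidonic acid, cut from membrane lipids by phospholipases, enters either of 2 routes. The cyclooxygenases, constitutive COX-1 (Ptgs1) and inducible COX-2 (Ptgs2), turn it into prostaglandin H2, which the microsomal synthase Ptges converts to prostaglandin E2 and the haematopoietic synthase Hpgds to prostaglandin D2, and prostaglandin E2 acts through receptors such as EP2 (Ptger2) and EP4 (Ptger4). In the other route 5-lipoxygenase (Alox5), helped by its activating protein FLAP (Alox5ap), begins the synthesis of leukotriene B4, a neutrophil attractant that binds BLT1 (Ltb4r1). In tumours, COX-2 and prostaglandin E2 are known for restraining T cells and for shaping myeloid cells.

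The libraries held between 150591289 and 169978362 UMIs, which are molecular tags that count each captured transcript once, and between 15382 and 23063 cells passed the filters on depth and RNA quality. Cells were assigned by markers that include none of the 9 genes. This gave 4577 to 7746 neutrophils, 1837 to 2830 macrophages, 433 to 881 T cells and 2544 to 7222 cancer cells per library. Every marker of a class was detected in each of its sums, but cells entered by these markers, so this is no check. A class's own markers reached 750% to 1890% of their free RNA level in neutrophils and 348% to 618% in macrophages. In T cells this was 2202% to 4744%, and in cancer cells only 115% to 170%. Markers of NK cells in the T cell class reached 1519% to 2609% of their free RNA level. The highest level in any of the 4 classes was 203% of free RNA for dendritic cell, 178% for B cell, 168% for mast cell, 153% for endothelial, 66.2% for fibroblast and 60.3% for enterocyte markers. Between 73 and 134 cell barcodes were shared by a pair of libraries, at most 0.741% of the smaller one. Mlkl, the overexpressed gene, stood at 16.4 CPM (UMIs of the gene scaled to 1000000 UMIs of the class) in the cancer cells of OE-Vector 1, against 8.50, 12.9 and 19.95 CPM in those of OE-MLKL 1, 2 and 3. OE-MLKL 1 and 2 lay below and OE-MLKL 3 above the vector library, so overexpression was not visible in these 3′ counts, and OE-MLKL stands below for the libraries labelled so. Levels are CPM of the UMIs summed over all cells of a class in a library, and a share is the percentage of cells with at least 1 UMI after every cell was thinned to 500 UMIs.

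Ptgs2 was highest in neutrophils. Summed over this class it reached 3031 CPM in OE-Vector 1, 503 in OE-MLKL 1, 558 in OE-MLKL 2 and 1714 in OE-MLKL 3. In cancer cells the level was 132, 65.8, 74.1 and 193 CPM in the same order of libraries, and in macrophages 99.5, 44.5, 37.9 and 124 CPM. T cells gave 25.2, 8.76, 14.3 and 36.0 CPM. Neutrophils were above each other class in all 4 libraries, and within every class OE-Vector 1 and OE-MLKL 3 lay above OE-MLKL 1 and 2. One fit of edgeR over the 16 class sums, with the library as a block, put neutrophils above macrophages by 4.21 ± 0.29 on the log2 scale (SE, adjusted p = 1.3e-08), above cancer cells by 3.72 ± 0.28 (adjusted p = 1.16e-08) and above T cells by 6.28 ± 0.33 (adjusted p = 7.02e-10). Macrophages and cancer cells, next to each other in this order, were not separated (log2 difference −0.48 ± 0.25, adjusted p = 0.102), although scaling by library size alone (−0.66, adjusted p = 0.0166) and leaving out OE-Vector 1 (−0.48, adjusted p = 0.00911) both placed macrophages below cancer cells.

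The share of neutrophils with a Ptgs2 UMI at equal depth was 64.7% (95% exact binomial interval 63.5 to 65.8) in OE-Vector 1, 17.3% (16.2 to 18.5) in OE-MLKL 1, 19.9% (18.98 to 20.8) in OE-MLKL 2 and 48.5% (47.3 to 49.6) in OE-MLKL 3. Without thinning the shares were 82.4%, 23.4%, 27.6% and 73.8%. T cells, which were below the free RNA level for this gene, gave thinned shares of 0.908%, 0.924%, 1.49% and 2.16%, which rest on 4 to 16 cells. Median depth was 749 to 1413 UMIs in neutrophils and 2806 to 3811 in T cells, so that before thinning the shallower class already had the larger share. A single neutrophil held up to 54 Ptgs2 UMIs. Free RNA, taken as the UMIs of barcodes with at most 100 UMIs, carried 354, 103, 121 and 282 CPM of Ptgs2 in OE-Vector 1 and OE-MLKL 1, 2 and 3. Ptgs2 in neutrophils was therefore 462% to 856% of the free RNA level, against 28.1% to 43.9% in macrophages, 37.2% to 68.5% in cancer cells and 7.13% to 12.8% in T cells. Neutrophil markers in these 3 classes stood at 8.76% to 13.2%, 3.57% to 5.89% and 3.76% to 8.47% of their own free RNA level. A level below that of free RNA is thus not by itself background, and the part of free RNA was not tested. Intervals and floors cover counting error only.

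**Figure D1:**
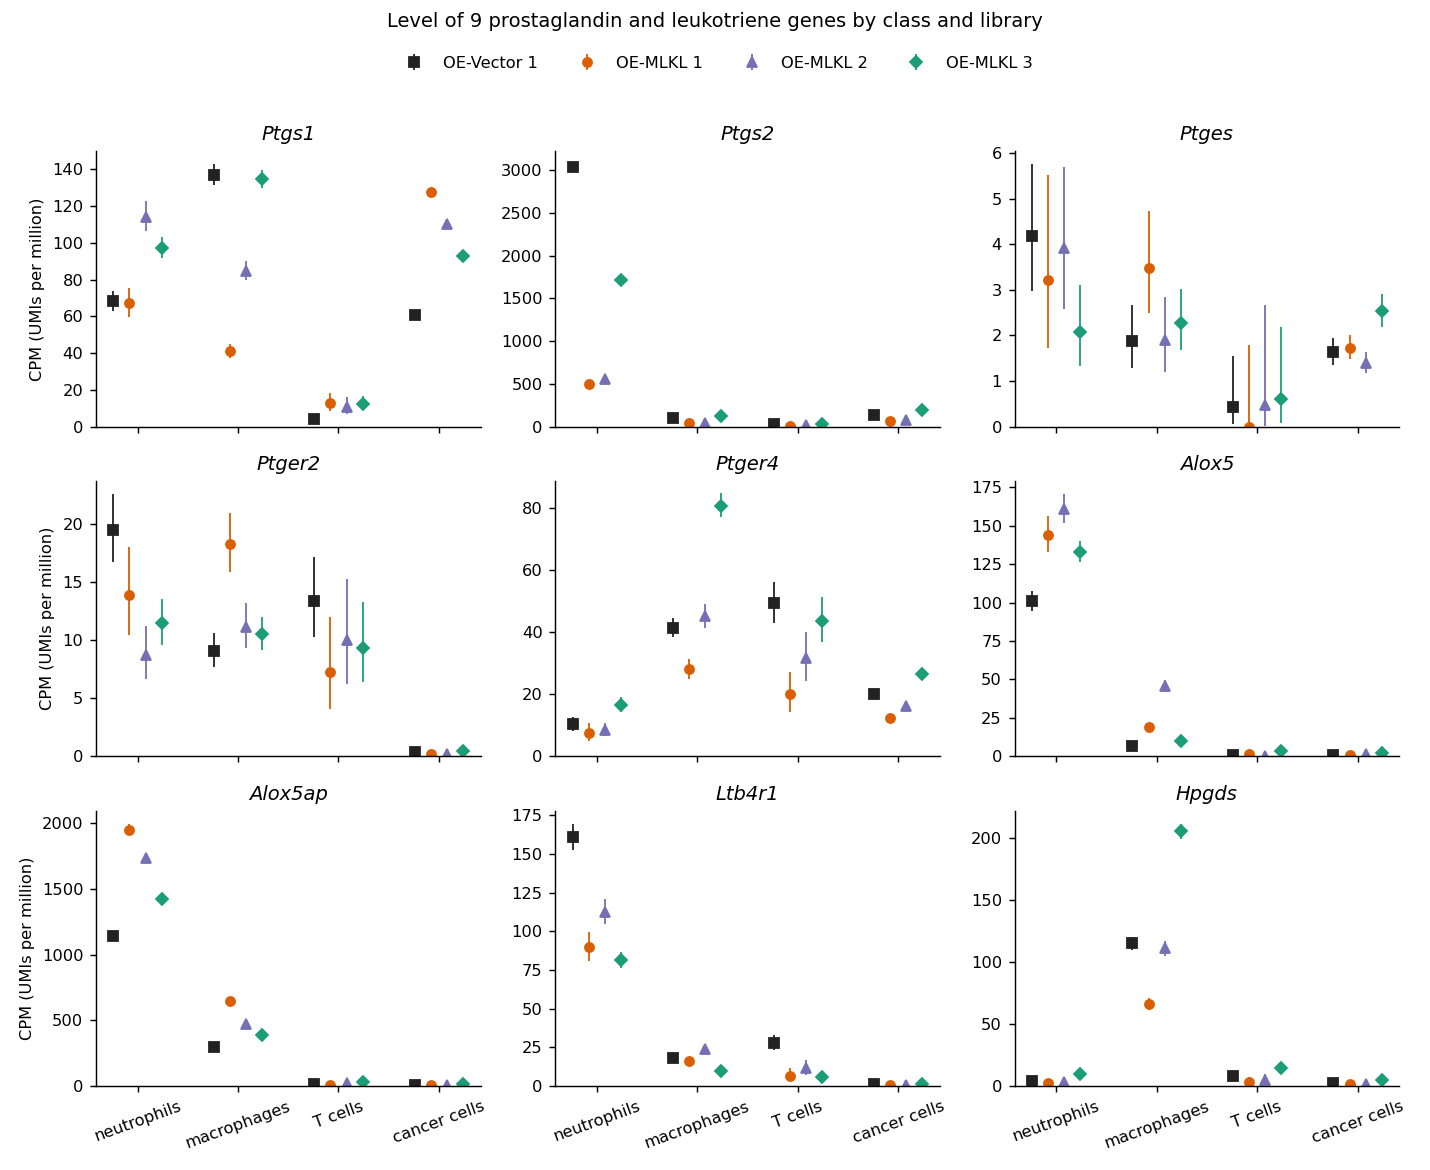
Level of each of the 9 genes (CPM, linear axes starting at 0) in the 4 cell classes, with 1 point per library and bars for the exact 95% Poisson interval of its UMI count. Ptgs2, Alox5, Alox5ap and Ltb4r1 are highest in neutrophils in all 4 libraries, Hpgds in macrophages, and Ptgs2 in neutrophils runs from 503 CPM in OE-MLKL 1 to 3031 CPM in OE-Vector 1.

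**Figure D2:**
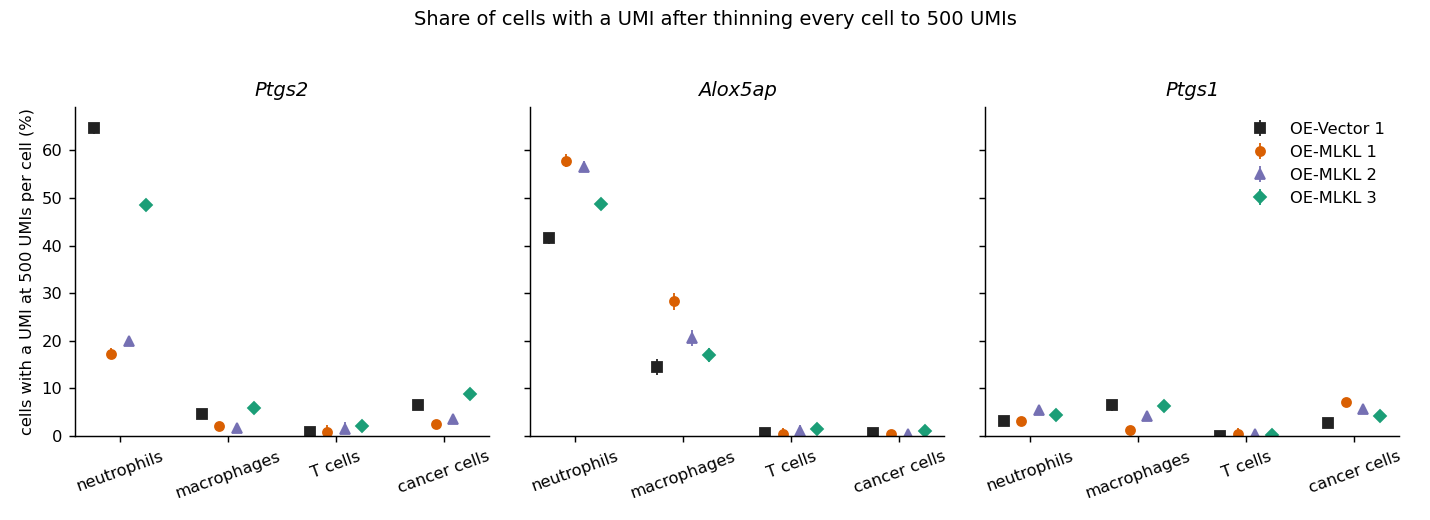
Share of cells (%) with at least 1 UMI of Ptgs2, Alox5ap or Ptgs1 after thinning each cell to 500 UMIs, by class, with 1 point per library and exact 95% binomial bars. For Ptgs2 the neutrophils lie between 17.3% and 64.7% and the T cells between 0.908% and 2.16%, whereas Alox5ap shows the opposite order of OE-Vector 1 and OE-MLKL libraries in neutrophils.

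Ptgs2 lies on chromosome 1 from 150100031 to 150108227 on the plus strand (GRCm38, GENCODE vM21), with no other gene overlapping it. The non-coding gene Ptgs2os runs on the minus strand from 150074873 to 150099963, which puts its start 68 bases before that of Ptgs2, so the genes run in opposite directions from nearby starts. The 250 bases before the start (RefSeq, GRCm38.p6, chr1:150099781-150100030, plus strand) are shown because they hold the start of Ptgs2os and end at the base before that of Ptgs2, and the capitals mark a GC box. A shorter run just after the start (chr1:150100034-150100061) is shown for 2 motifs of inducible genes, the half-site of the cyclic AMP response element and the E-box, which overlap in the capitals.
Ptgs2 upstream: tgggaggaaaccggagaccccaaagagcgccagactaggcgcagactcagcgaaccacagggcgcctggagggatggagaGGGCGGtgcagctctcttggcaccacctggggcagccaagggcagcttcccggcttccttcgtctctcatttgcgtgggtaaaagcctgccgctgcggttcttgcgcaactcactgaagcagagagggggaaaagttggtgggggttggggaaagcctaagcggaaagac
Ptgs2 after the start: gtcaccactaCGTCACGTGgagtccgct

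Motifs were searched on both strands in windows of 250 bases before to 50 after the start. Of 32851 such windows, 35.7% held the GC box (GGGCGG), 20.8% the half-site (TGACG) and 7.15% the E-box (CACGTG), and 8 of the 9 genes had a window. Ptgs2 was the only one of these 8 genes with the E-box or the half-site. A match of letters is a description of the window. Ptgs2os, added after its values were seen, stood at 43.4, 15.4, 14.5 and 35.5 CPM in the neutrophils of OE-Vector 1 and OE-MLKL 1, 2 and 3 and at 42.6, 39.9, 34.6 and 40.2 CPM in the cancer cells. Its level in neutrophils was highest in OE-Vector 1 and OE-MLKL 3, the libraries with the most Ptgs2, whereas its range in cancer cells was narrow. The gene whose level ran most like Ptgs2 over the 16 class sums was Ptgs2os2 (r = 0.977), a long non-coding RNA that lies 50816 bases beyond the end of Ptgs2. Gpat3, a glycerol-3-phosphate acyltransferase (r = 0.976), and the interferon-induced Oasl2 (r = 0.974) followed. These correlations of log2(CPM + 1) were ranked over 10663 genes, and the 16 sums share libraries and classes, so they describe likeness only.

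Ptgs1 was spread over 3 classes. Macrophages gave 137, 41.0, 84.9 and 135 CPM in OE-Vector 1 and OE-MLKL 1, 2 and 3. Cancer cells gave 60.9, 128, 110 and 92.8 CPM, and neutrophils 68.3, 67.1, 114 and 97.1 CPM. T cells were far lower, at 4.10, 12.7, 10.5 and 12.4 CPM. The 3 higher classes were not separated from each other, with log2 differences of −0.11 ± 0.35 for neutrophils against macrophages (adjusted p = 0.783), 0.07 ± 0.35 for neutrophils against cancer cells (adjusted p = 0.851) and 0.19 ± 0.35 for macrophages against cancer cells (adjusted p = 0.648). Without OE-MLKL 1 the last of these passed the threshold (0.75, adjusted p = 0.0234). Each was above T cells, by 3.48 ± 0.44, 3.60 ± 0.44 and 3.41 ± 0.44 for neutrophils, macrophages and cancer cells (adjusted p = 5.47e-06, 5.88e-06 and 6.83e-06). Against free RNA, which held 65.8 to 94.7 CPM, the level was 70.9% to 127% in neutrophils, 43.3% to 208% in macrophages and 92.5% to 135% in cancer cells, so none of these classes was above it in every library. In neutrophils the cancer cell markers stood at 13.3% to 21.8% and the macrophage markers at 17.2% to 24.2% of their own free RNA level.

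**Figure D3:**
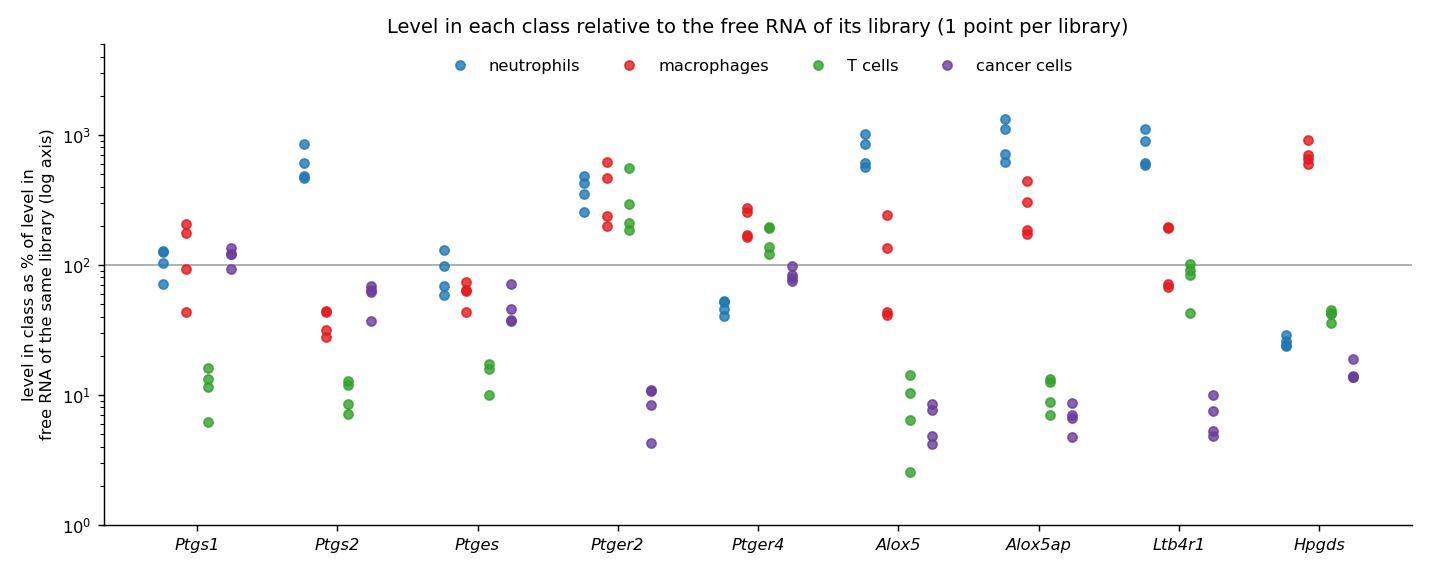
Level of each gene in a class as a percentage of its level in the free RNA of the same library (log axis, grey line at equal levels, 1 point per library; Ptges in the T cells of OE-MLKL 1, with no UMI, is left off). Alox5, Alox5ap and Ltb4r1 in neutrophils and Hpgds in macrophages lie above the line in all libraries, as do Ptgs2 in neutrophils, Alox5ap in macrophages, Ptger2 in neutrophils, macrophages and T cells and Ptger4 in macrophages and T cells.

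Ptgs1 lies on chromosome 2 from 36230426 to 36252272 (plus strand), and the antisense gene Gm43621 overlaps it. Its upstream window (chr2:36230176-36230425) is shown beside that of its isoenzyme Ptgs2. The capitals mark GAGGAAGT, a binding motif of PU.1, the ETS factor of myeloid cells.
Ptgs1 upstream: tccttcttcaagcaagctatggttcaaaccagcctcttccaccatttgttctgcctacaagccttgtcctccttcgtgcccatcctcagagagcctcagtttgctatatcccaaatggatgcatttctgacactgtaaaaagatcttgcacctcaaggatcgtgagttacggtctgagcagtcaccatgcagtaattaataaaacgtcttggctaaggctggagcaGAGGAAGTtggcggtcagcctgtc
The same letters, on either strand, were found in 3 of the 8 windows and in 3.20% of all windows. Here too a match describes the window only. Ptgs1 was about as high in cancer cells (mean 97.9 CPM) as in macrophages (99.4 CPM), and the part of PU.1 in these levels was not tested. The other windows with it were those of Hpgds (chr6:65144761-65144790, minus strand) and Ltb4r1 (chr14:55765951-55765980, plus strand, motif on the opposite strand), of which the surrounding bases are given.
Hpgds: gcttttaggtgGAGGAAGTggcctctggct
Ltb4r1: tgctctgtggtACTTCCTCtctggctgact

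Of the 4 classes, macrophages had the most Hpgds. Its level in macrophages was 115, 66.2, 111 and 206 CPM in OE-Vector 1 and OE-MLKL 1, 2 and 3, against 7.98, 3.41, 5.25 and 14.2 CPM in T cells, 4.30, 2.48, 2.90 and 9.90 CPM in neutrophils and 2.45, 1.79, 1.70 and 4.69 CPM in cancer cells. Macrophages exceeded every other class in each library. The log2 differences were 4.22 ± 0.17 over T cells (adjusted p = 7.86e-11), −4.58 ± 0.17 for neutrophils against macrophages (adjusted p = 9.98e-11) and 5.74 ± 0.16 over cancer cells (adjusted p = 6.81e-12). T cells and neutrophils, next to each other in the order, were not separated (log2 difference −0.36 ± 0.20 for neutrophils against T cells, adjusted p = 0.128). Scaling by library size alone placed neutrophils below T cells (−0.69, adjusted p = 0.00671), and so did gating without the limit on neutrophil and macrophage markers (−0.48, adjusted p = 0.0363). In all classes but macrophages the level was below that of free RNA (13.7% to 44.9% of it), against 601% to 907% in macrophages. The genes most like Hpgds over the 16 sums were the lincRNA Gm44751 (r = 0.979), the amino acid transporter Slc7a8 (r = 0.977) and the potassium channel Kcnk13 (r = 0.977).

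Ptges, the last enzyme of the prostaglandin E2 route, was barely detected in the 4 classes. It gave 4.19, 3.22, 3.92 and 2.08 CPM in neutrophils, 1.88, 3.47, 1.90 and 2.27 CPM in macrophages, 1.63, 1.72, 1.39 and 2.53 CPM in cancer cells and at most 0.605 CPM in T cells. No UMI was found in the T cells of OE-MLKL 1, where 3 UMIs would be 1.46 CPM. Free RNA held 3.004 to 4.68 CPM, and no class exceeded 130.5% of it. Over all cells of a library Ptges stood at 4.30, 4.82, 2.64 and 3.44 CPM in OE-Vector 1 and OE-MLKL 1, 2 and 3. In OE-MLKL 2 neutrophils lay above this level. In the other libraries each class lay below it, so cells outside the classes held more. Neutrophils stood above cancer cells in the fit (log2 difference 1.195 ± 0.31, adjusted p = 0.00218), although in OE-MLKL 3 they held 2.08 CPM against 2.53 CPM in cancer cells. They also stood above T cells (3.32 ± 0.55, adjusted p = 7.33e-05), but not detectably above macrophages (0.64 ± 0.32, adjusted p = 0.0897). This last difference passed the threshold with DESeq2 (0.79, adjusted p = 0.0458), with cells of at least 1000 UMIs (0.88, adjusted p = 0.0395) and without OE-MLKL 1 (0.92, adjusted p = 0.0326). Macrophages and cancer cells were not separated (0.56 ± 0.29, adjusted p = 0.102), except in gating without the limit on neutrophil and macrophage markers (0.62, adjusted p = 0.0344). Gda, Rnf185 and Il13ra1 ran most like Ptges (r = 0.935, 0.930 and 0.922). Its own mean over the 16 sums was 1.98 CPM, below the 5 CPM asked of the genes it was ranked against, so this likeness rests on few UMIs.

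Of the 4 classes, neutrophils had the most Alox5ap and Alox5, and macrophages followed. Alox5ap reached 1140, 1951, 1734 and 1420 CPM in the neutrophils of OE-Vector 1 and OE-MLKL 1, 2 and 3, and 294, 646, 474 and 392 CPM in macrophages. T cells held 14.0, 10.2, 20.5 and 28.4 CPM, and cancer cells 7.005 to 19.6 CPM. This was 6.95% to 13.2% of the free RNA level in T cells and 4.77% to 8.60% in cancer cells. Neutrophil markers in these classes stood at 3.76% to 8.47% and 3.57% to 5.89% of their own free RNA level. Neutrophils exceeded macrophages by 1.89 ± 0.27 on the log2 scale (adjusted p = 1.8e-05), and macrophages exceeded T cells by 4.80 ± 0.32 (adjusted p = 8.44e-09) and cancer cells by 5.44 ± 0.31 (adjusted p = 6.79e-10). T cells and cancer cells were not separated (0.63 ± 0.30, adjusted p = 0.0753), though they were with DESeq2 (0.74, adjusted p = 0.0346), without OE-MLKL 1 (0.66, adjusted p = 0.0223) and with cells of 2 gates kept (0.97, adjusted p = 0.00194). The thinned share of neutrophils with a UMI was 41.5%, 57.9%, 56.6% and 48.8%, against 0.462% to 1.48% of T cells, and OE-Vector 1 had the lowest share of the 4 libraries. Alox5ap lies on chromosome 5 from 149264767 to 149288153 (plus strand). Ogfrl1 (r = 0.994), the cytokine receptor subunit Csf2rb (r = 0.993) and the adaptor Dok3 (r = 0.993) ran most like it.

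Alox5 itself gave 101, 144, 161 and 133 CPM in neutrophils and 6.84, 19.3, 45.7 and 10.1 CPM in macrophages, which was 40.9%, 136%, 242% and 43.3% of the free RNA level and thus below it in OE-Vector 1 and OE-MLKL 3. T cells held at most 3.33 CPM (2.53% to 14.2% of the free RNA level) and cancer cells at most 2.004 CPM (4.17% to 8.56%). The log2 difference between neutrophils and macrophages was 3.07 ± 0.36 (adjusted p = 3.31e-06), and macrophages exceeded cancer cells by 4.11 ± 0.40 (adjusted p = 2.47e-07). T cells and cancer cells were not separated (0.58 ± 0.77, adjusted p = 0.527). The macrophages of OE-MLKL 2 lay well above those of the other libraries. Neutrophil markers summed to 632, 590, 652 and 921 CPM in the macrophages of the 4 libraries, or 8.76% to 13.2% of their own free RNA level. Alox5 lies on chromosome 6 from 116410077 to 116461178 (minus strand), and Mcemp1 (r = 0.983), the inhibitory receptor Cd300lf (r = 0.983) and Osbpl9 (r = 0.982) ran most like it.

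Of the receptor genes, Ltb4r1 was highest in neutrophils, with 161, 89.9, 113 and 81.6 CPM in OE-Vector 1 and OE-MLKL 1, 2 and 3. Macrophages gave 18.3, 16.1, 23.998 and 9.51 CPM, T cells 27.8, 6.81, 11.5 and 5.75 CPM (43.0% to 102% of free RNA), and cancer cells at most 1.35 CPM. Neutrophils were higher than macrophages (log2 difference 2.81 ± 0.29, adjusted p = 9.48e-07), T cells (3.42 ± 0.33, adjusted p = 3.61e-07) and cancer cells (7.08 ± 0.36, adjusted p = 1.74e-10). Macrophages and T cells were not separated in the fit of all libraries (0.61 ± 0.34, adjusted p = 0.138), but were without OE-Vector 1 (1.24, adjusted p = 0.0222). Ltb4r1 lies on chromosome 14 from 55765962 to 55768494 (plus strand).

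Ptger4, the EP4 receptor gene, was highest in macrophages and T cells and lowest in neutrophils. It stood at 41.3, 28.0, 45.0 and 80.7 CPM in macrophages, 49.2, 19.9, 31.5 and 43.6 CPM in T cells, 19.9, 12.3, 16.1 and 26.4 CPM in cancer cells and 10.3, 7.43, 8.42 and 16.6 CPM in neutrophils. Neutrophils were the lowest class in each library, at 40.7% to 52.5% of the free RNA level. They were below macrophages (log2 difference −2.05 ± 0.16, adjusted p = 6.12e-08) and T cells (−1.49 ± 0.17, adjusted p = 2.34e-06). Macrophages exceeded T cells by 0.56 ± 0.16 (adjusted p = 0.00664), although OE-Vector 1 had more in T cells, and this call was lost without OE-MLKL 3 (0.41, adjusted p = 0.0558) and without the library as a block (0.58, adjusted p = 0.150). The smaller step from cancer cells down to neutrophils (−0.53 ± 0.16, adjusted p = 0.0075) was lost without OE-MLKL 1 (−0.40, adjusted p = 0.0686) and without OE-MLKL 2 (−0.46, adjusted p = 0.0564). It was lost as well with DESeq2 (−0.27, adjusted p = 0.159), with cells of 2 gates kept (−0.31, adjusted p = 0.0875) and without the block (−0.47, adjusted p = 0.194). Ptger4 lies on chromosome 15 from 5206661 to 5244187 (minus strand), and Ttc33 overlaps it on the other strand.

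Ptger2, the EP2 receptor gene, was low among the immune classes. Neutrophils gave 19.5, 13.9, 8.71 and 11.5 CPM, macrophages 9.08, 18.3, 11.1 and 10.5 CPM, and T cells 13.4, 7.30, 10.0 and 9.38 CPM, whereas cancer cells held at most 0.475 CPM. The immune classes were not separated, with log2 differences of 0.21 ± 0.29 for neutrophils against macrophages (adjusted p = 0.531), 0.68 ± 0.33 for neutrophils against T cells (adjusted p = 0.0753) and 0.47 ± 0.32 for macrophages against T cells (adjusted p = 0.228). The second of these passed the threshold with DESeq2 (0.82, adjusted p = 0.0350), with no filter on low counts (0.80, adjusted p = 0.0328) and with cells of 2 gates kept (0.72, adjusted p = 0.0454). Each immune class was above cancer cells by at least 5.08 ± 0.38 on the log2 scale (T cells against cancer cells, adjusted p = 1.62e-08). Ptger2 lies on chromosome 14 from 44988195 to 45003820 (plus strand).

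Counted together, the 9 genes differed between most pairs of classes, as did most genes tested. Between neutrophils and macrophages 4 were higher and 2 lower, where 68.8% of all 14321 genes were called (4581 higher and 5265 lower). Between neutrophils and T cells 6 were higher and 1 lower (70.7% of all genes, 5057 higher and 5073 lower, that is 49.9% higher, or 39.4% with scaling by library size alone), and between neutrophils and cancer cells 7 were higher and 1 lower (81% of all genes, 5072 higher and 6524 lower). Macrophages had 7 genes above T cells (59.2% of all genes called, 4280 higher and 4203 lower) and 6 above cancer cells (68.7%, 4456 higher and 5378 lower), with none lower. T cells had 4 above and 3 below cancer cells (64.8% of all genes called, 4293 higher and 4989 lower). The number called in either direction is close to the background and says nothing particular about the 9 genes, and the split by direction was not tested.

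The question of the labelled construct was asked within each class. In neutrophils, Ptgs2 stood at 3031 CPM in OE-Vector 1 against a mean of 925 ± 684 CPM (SD, n = 3) in those labelled OE-MLKL, all of which lay below it. The fitted log2 difference was −1.98 ± 0.67 (edgeR, unadjusted p = 0.0243, adjusted p = 0.535), which did not pass the threshold. Without OE-MLKL 3 the value was −2.73 with an adjusted p of 0.00105, in a fit that rests on the spread of a single remaining pair and called 1472 genes in all. Ltb4r1 and Ptger2 were also lower in every OE-MLKL library, by −1.01 ± 0.32 (unadjusted p = 0.0193, adjusted p = 0.531) and −1.03 ± 0.36 (unadjusted p = 0.0264, adjusted p = 0.539) on the log2 scale. Ltb4r1 was among those 1472 genes (−0.89, adjusted p = 0.0387). Alox5 and Alox5ap lay above OE-Vector 1 in each OE-MLKL library, with log2 differences of 0.29 ± 0.32 (adjusted p = 0.823) and 0.34 ± 0.42 (adjusted p = 0.840). Of the 9 genes 0 were called, as were 0% of the 13064 genes tested. At an unadjusted p under 0.05 there were 3 of the 9 and 1139 of all genes, and DESeq2 and limma-voom called 0 of the 9 and 96 and 0 of all genes.

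Depth and other signals moved with Ptgs2 in neutrophils. The median neutrophil had 1214 UMIs in OE-Vector 1, 749 in OE-MLKL 1, 780 in OE-MLKL 2 and 1413 in OE-MLKL 3, so the libraries rich in Ptgs2 were those with deeper neutrophils. Gating on cells of at least 1000 UMIs gave 4912, 1004, 1842 and 6161 neutrophils, against 6522, 4577, 7746 and 6809 in the main gate. The log2 difference in these deeper cells was −2.01 (adjusted p = 0.469). The gate kept unlike parts of the libraries and did not equalise depth, so the part of depth was not tested. In all neutrophils of the main gate the 6 B cell markers summed to 173, 14.4, 23.95 and 111 CPM, in the library order of Ptgs2. This was 32.3% to 153% of their free RNA level. The macrophage markers summed to 1447, 1266, 1291 and 2562 CPM, highest in OE-MLKL 3, as were the NK, dendritic and cancer cell markers. T cell, endothelial and mast cell markers in neutrophils were highest in OE-Vector 1, and fibroblast and enterocyte markers lowest there. The part of any of these lists in the differences of Ptgs2, Ltb4r1 and Ptger2 was not tested. The tumours were digested with collagenase, and of 14 immediate early and heat shock genes 0 were called by edgeR in neutrophils, with a median log2 difference of −0.37 against 0.04 over all genes. In macrophages, T cells and cancer cells 0 of the 14 were called as well, with medians of 0.42, −0.11 and 0.62. By direction, 11 of the 14 lay below 0 and 3 above in neutrophils. In macrophages 11 lay above and 3 below, in T cells 7 on either side, and in cancer cells 13 above and 1 below. Fos stood at 3266, 5471, 4143 and 4819 CPM, Egr1 at 3238, 2600, 2015 and 3102 CPM, and Hspa1a at 12.3, 2.23, 6.53 and 11.9 CPM in the neutrophils of OE-Vector 1 and OE-MLKL 1, 2 and 3. Egr1 and Hspa1a were highest and Fos lowest in OE-Vector 1. The part of digestion in the level of Ptgs2 was not tested.

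**Figure D4:**
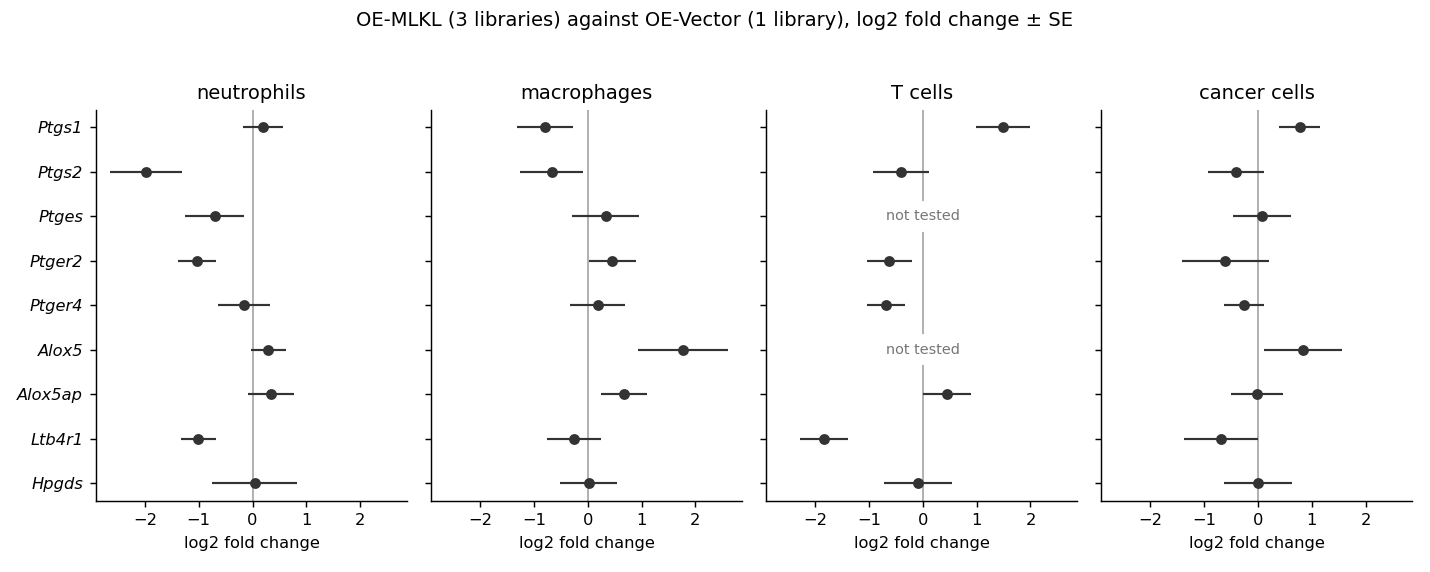
Log2 fold change with its SE (edgeR) of the 9 genes between the 3 libraries labelled OE-MLKL and OE-Vector 1, in each class; the vertical line marks no difference. Ptgs2 in neutrophils (−1.98) and Ltb4r1 in T cells (−1.84) lie farthest below 0 and Alox5 in macrophages (1.77) farthest above, and none passed an adjusted p of 0.05.

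In macrophages none of the 9 genes was called (0.00729% of 13721 genes were). Alox5 was above the 6.84 CPM of OE-Vector 1 in all OE-MLKL libraries (25.0 ± 18.5 CPM, SD, n = 3), with a log2 difference of 1.77 ± 0.84 (unadjusted p = 0.0718, adjusted p = 0.879), at a level below free RNA in OE-Vector 1 and OE-MLKL 3. Alox5ap was above 294 CPM in all of them as well (504 ± 130 CPM), by 0.68 ± 0.43 (adjusted p = 0.879). Ptgs1 lay below the 137 CPM of OE-Vector 1, in OE-MLKL 3 by little, and its log2 difference was −0.79 ± 0.52 (adjusted p = 0.883). The difference of Ptgs2 was −0.66 ± 0.59 (adjusted p = 0.923), with OE-MLKL 3 above and the other 2 below OE-Vector 1, and without OE-MLKL 3 it was −1.34 with an adjusted p of 0.0413, in a fit that called 205 genes. Its level was 28.1% to 43.9% of free RNA, which held 354, 103, 121 and 282 CPM, and median macrophage depth was 8553, 4154, 4835 and 7099 UMIs. The 6 NK cell markers summed to 24.5, 2.60, 2.23 and 17.98 CPM and the 6 endothelial markers to 40.5, 5.90, 4.95 and 22.1 CPM in the same macrophages. OE-Vector 1 and OE-MLKL 3 were highest in free RNA, in depth and in both marker sums, and the part of these in the result was not tested. Hpgds gave 0.02 ± 0.53 (adjusted p = 0.998), with libraries on both sides, since OE-MLKL 3 lay well above and OE-MLKL 1 well below OE-Vector 1. With edgeR 0 of the 9 and 767 of all genes had an unadjusted p under 0.05, and DESeq2 and limma-voom called 0 of the 9 and 65 and 0 of all genes.

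In T cells 7 of the 9 genes had enough counts to be tested, Ptges and Alox5 not, and 0 were called (0.0354% of 11301 genes were). Ltb4r1 stood at 27.8 CPM in OE-Vector 1 and at a mean of 8.01 ± 3.04 CPM (SD, n = 3) under the other label, with a fitted difference on the log2 scale of −1.84 ± 0.44 (unadjusted p = 0.00194, adjusted p = 0.413). Free RNA held 27.3 CPM of Ltb4r1 in OE-Vector 1 against 8.16, 12.5 and 13.4 CPM under that label. The level in T cells was 43.0% to 102% of it, while neutrophil markers in T cells stood at 3.76% to 8.47% of their own free RNA level. The part of free RNA in the difference was not tested. The difference of Ltb4r1 was −1.81 without OE-MLKL 1, −2.21 without OE-MLKL 2 and −1.53 without OE-MLKL 3. It passed the threshold in each of these fits, but there the spread rests on a single remaining pair. The markers of NK cells in the T cell sums moved the same way, at 3632 CPM in OE-Vector 1 and 439, 806 and 1795 CPM in OE-MLKL 1, 2 and 3, and their part in the result was not tested. Ptgs1 was higher in each OE-MLKL library, by 1.49 ± 0.50 (unadjusted p = 0.0137, adjusted p = 0.811), at a level of 4.10 CPM, or 19 UMIs, in OE-Vector 1. That level was 6.23% to 16.2% of free RNA over the 4 libraries, and free RNA held 65.8 CPM of Ptgs1 in OE-Vector 1 and more, 76.5 to 94.7 CPM, under the other label. Ptger4 was lower in each, by −0.68 ± 0.35 (adjusted p = 0.9996), and passed without OE-MLKL 3 (−0.87, adjusted p = 0.0329), where 749 genes were called. Ptgs2 lay on both sides of OE-Vector 1, with OE-MLKL 3 above it, and gave −0.40 ± 0.52 (adjusted p = 0.9996) with that library. Without OE-MLKL 3 the difference of Ptgs2 was −1.06 and passed the threshold, again on the spread of a single pair. Its level in T cells was 7.13% to 12.8% of free RNA. Free RNA held 354, 103, 121 and 282 CPM of Ptgs2 in OE-Vector 1 and OE-MLKL 1, 2 and 3, and its part in this value was not tested. By edgeR 2 of the 7 and 556 of all 11301 genes had an unadjusted p under 0.05, and DESeq2 and limma-voom called 0 of the 7 and 14 and 1 of all genes.

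In cancer cells, the class gated for the injected cells, Ptgs1 was 60.9 CPM in OE-Vector 1 and 110 ± 17.5 CPM (SD, n = 3) in libraries labelled OE-MLKL, each of which lay above it. The markers of this gate do not separate injected cells from host duct cells, which the paper told apart by copy number, so the class may hold cells without a construct. The log2 difference of 0.78 ± 0.38 did not pass (unadjusted p = 0.0837, adjusted p = 0.9995). The median depth of cancer cells was 26034, 12515, 12142 and 20714 UMIs in the 4 libraries, OE-Vector 1 first, so the deepest library had the lowest Ptgs1. The 15 cancer cell markers summed to 4157, 2366, 2956 and 3239 CPM in these cells, in the reverse of the order of Ptgs1, and free RNA held 65.8, 94.7, 90.8 and 76.5 CPM of Ptgs1, in the same order as the cells. The 5 enterocyte markers summed to 46.3, 83.4, 48.3 and 179 CPM, lowest in OE-Vector 1. The part of these in the difference was not tested. Ptgs2 overlapped, with 132 CPM against 111 ± 71.2 CPM and a log2 difference of −0.41 ± 0.52 (adjusted p = 0.9995). OE-MLKL 3 lay above and OE-MLKL 1 and 2 below OE-Vector 1, and the difference ranged from −0.91 to −0.18 over left-out replicates. Of the 9 genes 0 were called by edgeR, 0 had an unadjusted p under 0.05 (758 of all genes did) and 0 were called by DESeq2 or limma-voom (84 and 0 of all genes), where edgeR called 0.0058% of the 17247 genes tested.

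Whether the difference between the labels itself differed between classes was asked in a fit added after the data were seen, with a class by group term over the 16 sums. The difference of Ptgs2 in neutrophils was more negative than in cancer cells by −1.71 ± 0.29 on the log2 scale (unadjusted p = 6.7e-05, adjusted p = 0.0869), than in T cells by −1.56 ± 0.32 (unadjusted p = 0.000364, adjusted p = 0.158) and than in macrophages by −1.33 ± 0.29 (unadjusted p = 0.000558, adjusted p = 0.326). These are within-library contrasts, and none passed 0.05 after adjustment. Over the 6 pairs of classes 0 of the 9 genes were called by edgeR. The share of all genes called was 0% for neutrophils against macrophages and against T cells, 0.0419% for neutrophils against cancer cells, 0.014% for macrophages against T cells and 0.00698% for macrophages and for T cells against cancer cells. At an unadjusted p under 0.05 there were 8 of the 54 values of gene and pair, where between 690 and 1567 of all 14321 genes were under it in a pair.

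The wider pathway was followed in 34 further genes of phospholipid cleavage, prostanoid and leukotriene synthesis, transport and sensing. In the comparison of labels 24 were tested in neutrophils, 24 in macrophages, 18 in T cells and 30 in cancer cells, and 0 were called in any class by edgeR, as were 0%, 0.00729%, 0.0354% and 0.0058% of all genes. The median log2 differences were −0.03, −0.21, 0.33 and −0.18, against 0.03 or 0.04 over all genes. Between classes 24 were tested, with 8 higher and 10 lower in neutrophils against macrophages, 10 and 5 against T cells, and 13 and 7 against cancer cells. Macrophages had 12 higher and 5 lower than T cells and 13 higher and 8 lower than cancer cells, and T cells 6 higher and 9 lower than cancer cells. In these pairs, taken in the same order, 68.8%, 70.7%, 81%, 59.2%, 68.7% and 64.8% of all genes were called, so the counts say nothing particular about the pathway.

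Pla2g7, the secreted phospholipase that inactivates platelet-activating factor, was the leading gene of the list in neutrophils (531, 407, 415 and 683 CPM) and in macrophages (394, 812, 499 and 547 CPM), which were not separated (log2 difference −0.01 ± 0.23, adjusted p = 0.974). Fpr2, a formyl peptide receptor that also binds lipoxin, followed in neutrophils with 258, 489, 519 and 542 CPM, 4.004 ± 0.30 above macrophages on the log2 scale (adjusted p = 3.59e-08). Tbxas1, thromboxane synthase, was among the first 3 of the list in macrophages, with 112, 45.2, 92.0 and 129 CPM and a log2 difference of −3.44 ± 0.22 for neutrophils against macrophages (adjusted p = 6.4e-09). Ptges3, a cochaperone with prostaglandin E synthase activity, was among the first 3 in every class, at means of 110 ± 19.5 CPM in neutrophils, 146 ± 27.7 in macrophages, 163 ± 23.1 in T cells and 233 ± 40.0 in cancer cells (SD, n = 4).

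Lta4h, the hydrolase that completes leukotriene B4, was the second gene of the list in T cells with 67.1, 29.7, 42.0 and 67.2 CPM, above neutrophils (log2 difference −0.66 ± 0.19 for neutrophils against T cells, adjusted p = 0.00696) and above macrophages (−0.88 ± 0.19 for macrophages against T cells, adjusted p = 0.00101). Mgst2, a microsomal glutathione transferase able to form leukotriene C4, ranked after these in T cells (29.6, 51.6, 37.2 and 31.5 CPM) and after Cbr1 in cancer cells (88.4, 139, 92.8 and 54.0 CPM). Cbr1, a carbonyl reductase that acts on prostaglandin E2, was second in cancer cells with 137, 71.3, 125 and 91.2 CPM. The log2 difference of macrophages against cancer cells was −1.96 ± 0.17 (adjusted p = 6.05e-08).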

How the data were processed

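The matrices deposited by the authors hold UMI counts, not normalised, for every barcode including empty droplets, and those of 4 of the 6 samples were used here. The file headers name Cell Ranger 7.1.0 and the submitters' processing notes Cell Ranger 2.1.1 with mm10, and whether intronic reads were counted is not given in the sources used here. The count table has 32285 genes. Positions are from GENCODE vM21 (GRCm38).

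Barcodes with at least 500 UMIs, more than 200 genes, under 10% mitochondrial and at most 5% haemoglobin UMIs were kept. A cell entered a class when its markers made up at least 1% (neutrophils, macrophages), 0.2% (T cells) or 0.1% (cancer cells) of its UMIs, with at least 3 distinct markers. Cells of 2 gates, cells with at least 3 markers and 0.1% of NK, B, dendritic, endothelial, mast cell or enterocyte markers, and cells above 3 times the class median of neutrophil or macrophage markers were left out. No doublet caller was run. The thresholds were set after the marker distributions had been seen, and fibroblast markers were not used because KPC cells were taken to carry them. In the cancer cell sums these markers stood at 39.1% to 66.2% of their free RNA level.

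Each class of each library was reduced to 1 sum of UMIs. Sums were tested with edgeR 4.0.16 (quasi-likelihood, TMM, filterByExpr, Benjamini-Hochberg over all genes tested, threshold 0.05) in R 4.3.3. The fit of 1 OE-Vector against 3 OE-MLKL libraries has 2 residual degrees of freedom, so OE-Vector 1 is taken to vary as the OE-MLKL libraries do, while class pairs were contrasted in 1 fit of 16 sums with the library as a block (9 residual degrees of freedom). Nothing in the labels says more on the origin of the replicates than that they are separate tumour samples. SE is the absolute log2 fold change divided by the square root of F. The fits were run on simulated counts with known changes in a small set of genes and all other genes alike between classes. In the data 59.2% to 81% of genes were called between classes, so the simulation does not show how the fits over the 16 sums behave there. Intervals are exact 95% intervals, and a floor is 3 UMIs. Alternatives were DESeq2 1.42.0, limma-voom 3.58.1, library size alone, no filter on low counts, cells of at least 1000 UMIs, 1 more marker, cells of 2 gates kept, no block and each replicate left out. Gating without the limit on neutrophil and macrophage markers, and the class by group fit, were added after the data were seen.

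The 9 genes and the lists were chosen with earlier results of these data known. Named besides the 9 were the 3 other pathway genes with the highest mean CPM in each class, Fos, Egr1 and Hspa1a, and for Ptgs2, Ptges, Alox5, Alox5ap and Hpgds the 3 genes with the highest Pearson r among those with a mean of at least 5 CPM. Python 3.11.15 with numpy 2.4.6 was used.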

Additional observations from a re-analysis of the deposited data

Results flagged for a closer look

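In 3 genes all OE-MLKL libraries lay on one side of OE-Vector 1 in one class and on the other side in another. The test of the difference is the class by group term of edgeR, and none passed 0.05 after adjustment. For Ptgs1 the log2 difference of macrophages minus T cells was −2.31 ± 0.85 (adjusted p = 0.904) and that of macrophages minus cancer cells −1.68 ± 0.62 (adjusted p = 0.989). For Ptger2 neutrophils minus macrophages gave −1.46 ± 0.56 (adjusted p = 0.486) and macrophages minus T cells 1.04 ± 0.61 (adjusted p = 0.907). For Ptges, close to its free RNA level, neutrophils minus macrophages gave −1.01 ± 0.73 (adjusted p = 0.725).

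Cells gated on mast cell markers, outside the comparisons above, carried Alox5 and Hpgds. The 43 such cells of OE-Vector 1 held 499 CPM of Alox5 (80 UMIs, exact 95% Poisson interval 395 to 621) and 212 CPM of Hpgds (34 UMIs, interval 147 to 296). The 19 cells of OE-MLKL 3 held 334 CPM of Alox5 (17 UMIs) and 551 CPM of Hpgds (28 UMIs), and OE-MLKL 1 and 2 had 7 and 3 such cells. In OE-Vector 1 the Alox5 level was thus above the 101 CPM of neutrophils, and Hpgds was above the level in macrophages in each of the 4 libraries, though the 3 UMIs of OE-MLKL 2 (442 CPM, interval 91.2 to 1293) do not separate it from the 111 CPM there, as sums over few cells with no test.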

How the results depend on the processing

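No paired analysis was possible because only OE-Vector 1 has a matrix used here, so the groups share a single replicate number. Calls between classes moved by less than 1.5 times under every setting run, while the comparison of labels rests on few calls. Against 0 genes called in neutrophils, DESeq2 called 96 and no filter on low counts 35, and leaving out replicates gave 0 to 1472. Against 1 in macrophages, DESeq2 called 65, no filter 12, limma-voom 0, and keeping cells of 2 gates or gating without the limit on other markers 0, and leaving out replicates gave 12 to 205. Against 4 in T cells, DESeq2 called 14, limma-voom 1, no filter 64, 1 more marker 1 and cells of 2 gates 7, and leaving out replicates gave 64 to 749. Against 1 in cancer cells, DESeq2 called 84, limma-voom and 1 more marker 0, and leaving out replicates gave 29 to 304. In each class the highest of these came without OE-MLKL 3, and the cause was not tested. Scaling by library size alone raised the median log2 difference of all genes to 0.28, 0.15, 0.07 and 0.13 in neutrophils, macrophages, T cells and cancer cells. With thinning to 1000 UMIs the share of neutrophils with Ptgs2 was 78.5%, 27.6%, 30.1% and 65.9% in OE-Vector 1 and OE-MLKL 1, 2 and 3, in the same order of libraries, and that of T cells 2.86%, 1.18%, 1.33% and 4.32%, in another order. In all, 97 shares moved beyond their counting interval at that depth and 47 did not. More UMIs per cell raise the chance of finding a gene, so this count does not measure a dependence on processing. The cells differed too. At 1000 UMIs 4904 of 6522 neutrophils remained in OE-Vector 1 and 6166 of 6809 in OE-MLKL 3. In OE-MLKL 1 and 2 only 1065 of 4577 and 1901 of 7746 did.

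Of the single values, 1012 alternatives kept direction and side of the threshold, 25 newly passed it, 7 no longer did and 32 changed sign, none of the last called in either setting. By class, the log2 differences between labels that changed sign were as follows. In neutrophils Ptger4 was 0.10 with library size alone (−0.58 to 0.020 over left-out replicates), and Hpgds −0.037 with limma-voom (−0.88 to 0.32). In macrophages Ptges was −0.11 without the limit on other markers, Ptger4 ranged from −0.25 to 0.46 and Ltb4r1 from −0.63 to 0.055 over left-out replicates, and Hpgds was −0.14 with limma-voom and −0.024 with cells of 2 gates (−0.45 to 0.31). In T cells Hpgds was 0.062 with cells of 2 gates (−0.81 to 0.20). In cancer cells Ptges was −0.012 without the limit on other markers (−0.069 to 0.24), Alox5ap 0.13 with library size alone, 0.19 with cells of 2 gates and 0.22 without that limit (−0.38 to 0.23), and Hpgds 0.0060 with DESeq2, 0.15 with library size alone and 0.0030 with no filter (−0.49 to 0.23). Between classes, Ptgs1 in neutrophils against macrophages was 0.032 with DESeq2 and 0.022 with limma-voom (−0.32 to 0.25), Ptger2 in that pair ranged over −0.13 to 0.49, Hpgds in neutrophils against T cells was 0.052 with cells of 2 gates, Ptgs1 in neutrophils against cancer cells was −0.20 with library size alone, and Ptgs1 in macrophages against cancer cells ranged over −0.23 to 0.75. The 7 calls lost all concern Ptger4.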

Other observations

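Enzymes of a route met in the same cells to different degrees. In neutrophils with an Alox5 UMI, 78.8%, 75.6%, 75.4% and 87.0% also had an Alox5ap UMI in OE-Vector 1 and OE-MLKL 1, 2 and 3, against 68.9%, 72.0%, 71.8% and 80.7% of those without Alox5. The cells with Alox5 were deeper in each library, for example 1317 against 1203 UMIs at the median in OE-Vector 1. In macrophages with a Ptgs1 UMI, 60.9%, 27.7%, 41.6% and 70.6% had an Hpgds UMI, against 40.2%, 23.6%, 35.6% and 61.7% of those without, again in deeper cells (9519 against 7327 UMIs in OE-Vector 1). Neutrophils with both Ptgs2 and Ptges numbered 24, 3, 9 and 19 in the 4 libraries, of 5377, 1072, 2141 and 5022 with Ptgs2. These were 0.446%, 0.280%, 0.420% and 0.378% of the neutrophils with a Ptgs2 UMI, against 0.437%, 0.228%, 0.285% and 0.168% of those without.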
